A study of Mus musculus with 2 samples.

Results

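The genes described here encode the machinery that makes and loads the peptides shown by MHC class I molecules, together with Nlrc5, the transactivator of class I genes. They are 10 genes of the 54680 in the expression table, chosen by name: Psmb8, Psmb9, Psmb10, Psme1, Psme2, Tap1, Tap2, Tapbp, Erap1 and Nlrc5. All 10 were found under these symbols, each at a single locus, and all 10 reached 1 FPKM in both libraries. FPKM is the number of fragments per kilobase of gene model and per unit of sequencing depth. Here 1 common depth served both libraries. FPKM values and log2 ratios therefore keep the 1.03-fold difference in read totals, while the read ratios below correct for it. RNA sequencing compared CT26 cells, a mouse colon cancer line, infected with a lentivirus expressing a short hairpin RNA to Setdb1 (CT26shSetdb1) with CT26 cells that carried the empty knockdown vector (CT26shCtrl). Setdb1 encodes a histone H3 lysine methyltransferase that silences genes and retroelements. The labels give the control genotype as wild type, describe the knockdown cells as differentiated, and give day 6 for both libraries. They do not state how many hairpins or clones were used. Each group was a single library, so no difference below has a replicate check or a p-value, and the values describe these 2 libraries and not the conditions.

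Proteasomes cut cytosolic proteins into peptides. Psmb5, Psmb6 and Psmb7 encode the catalytic subunits of the standard particle, and Psmb8, Psmb9 and Psmb10 encode the interferon-inducible subunits that take their places in the immunoproteasome. Psme1 and Psme2 encode the alpha and beta chains of the PA28 activator that caps the core. Tap1 and Tap2 pair to form the transporter that moves peptides into the endoplasmic reticulum, where Erap1 trims them and tapasin, the product of Tapbp, holds empty class I molecules at the transporter. Nlrc5 has no DNA-binding domain of its own and acts at class I promoters through RFX, NF-Y and CREB/ATF proteins.

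The table held 18421604 reads for the control library and 19045830 for the knockdown library, a ratio of 1.03. Setdb1 itself stood at 10.4 FPKM in control cells against 2.47 in the knockdown library, so the libraries matched their labels. Of 8 colon epithelial markers, 3 reached 1 FPKM in at least 1 library, and Krt19 did so in the knockdown library alone. All 3 were at least 2-fold higher in the knockdown library, against 6.81% of all genes that reached 1 FPKM in at least 1 library. For Krt19 the filter itself favours this outcome, so its count is no separate evidence. Krt20 had 183 and 1285 reads, Krt18 had 1016 and 2423, and Krt19 had 1 and 53. Epcam and Cdh1, which define epithelium, had 0 reads in both libraries. Of 9 leukocyte markers, 5 had 0 reads in both libraries, among them Cd3e, Itgam and Adgre1, and both endothelial markers were also at 0. Ptprc, the pan-leukocyte gene, had 0 reads in control cells against 4 in the knockdown library. Cd68, a lysosomal protein gene used as a macrophage marker, was the single leukocyte marker above 1 FPKM, with 245 and 2360 reads. The leukocyte markers summed to 10.5 FPKM in control cells against 100.3 in the knockdown library, nearly all of it Cd68. The colon epithelial markers summed to 43.2 and 128 FPKM. The part of either list in the results below was not tested.

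Most of the class I processing genes were higher in the knockdown library. Of the 10 genes, 8 were higher and 2, Tap2 and Erap1, were lower. On the scale of log2 ratios of (FPKM + 1), knockdown over control, the median of the 10 was 0.97 and the range ran from -0.57 for Erap1 to 1.62 for Tapbp. The 10671 genes that reached 1 FPKM in at least 1 library had a median of -0.00039 with quartiles of -0.36 and 0.38. All 8 genes that were higher lay above that upper quartile, while Erap1 lay below the lower one and Tap2 between them. On this scale 4 of the 10 genes (Tapbp, Psmb8, Psmb9 and Psme1) were at least 2-fold higher, against 6.81% of all genes tested. None was at least 2-fold lower, against 4.85% of all genes tested. Just under the threshold lay Tap1 at 0.99, Psmb10 at 0.95 and Psme2 at 0.93, and the nearest gene above it was Psme1 at 1.35. With a pseudocount of 0.1 in place of 1, Tap1 and Nlrc5 also passed, giving 6 genes against 10.6% of all genes. In bulk RNA, fewer expressing cells and less RNA per cell cannot be told apart.

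**Figure D1:**
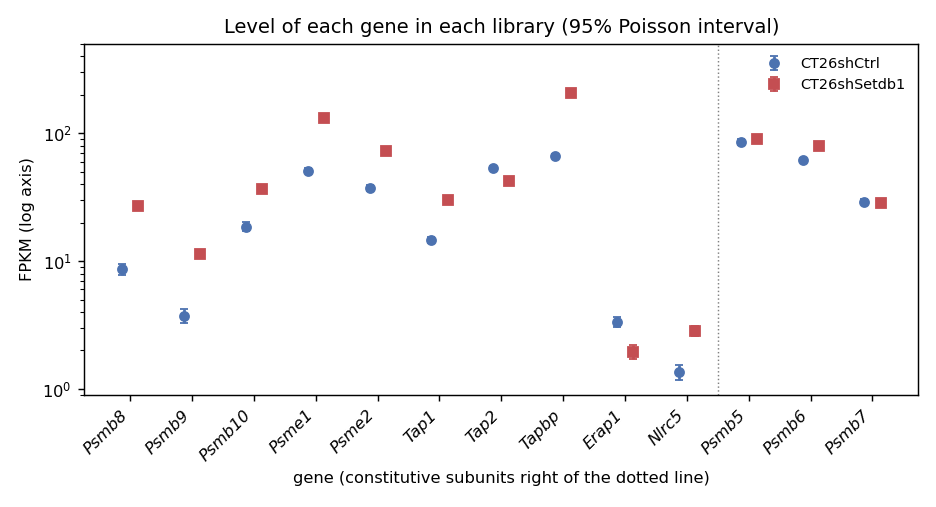
Level of the 10 genes and of the 3 constitutive catalytic subunits in FPKM (log axis), 1 point per library, with exact 95% Poisson intervals of the reads. Per length of the gene model, Tapbp was the highest member in both libraries, at 66.9 and 209 FPKM. Only Tap2 and Erap1 among the members were lower in CT26shSetdb1.

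All 3 immunoproteasome subunits were higher in the knockdown library, by about 2-fold to 3-fold, and their constitutive counterparts differed by less. Psmb8 (ENSMUSG00000024338; GRCm38, chromosome 17, 34197721 to 34201454), which provides the chymotrypsin-like site, stood at 8.61 FPKM (441 reads) in control cells against 27.2 FPKM (1393 reads) in the knockdown library. Relative to each library's own total, this is a read ratio of 3.06, with a 95% counting interval of 2.74 to 3.41. Such intervals, exact binomial throughout, cover counting error only, because PCR copies are not separate molecules and the libraries were not replicated. Psmb9 (ENSMUSG00000096727; chromosome 17, 34181988 to 34187764), which replaces the caspase-like subunit, went from 3.75 FPKM (257 reads) to 11.5 FPKM (785 reads). Its read ratio of 2.95 (2.56 to 3.41) could not be separated from that of Psmb8. Psmb10 (ENSMUSG00000031897; chromosome 8, 105935735 to 105938444), which replaces the trypsin-like subunit, had the highest FPKM of the 3 in both libraries. In the knockdown library this place depends on length, because Psmb8 had more reads there and a longer model (2736 against 1705 bases). Psmb10 stood at 18.6 FPKM (593 reads) against 36.7 FPKM (1173 reads), a read ratio of 1.91 (1.73 to 2.12). This interval lies below those of Psmb8 and Psmb9.

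Among the constitutive subunits, Psmb5 stood at 85.0 FPKM in control cells against 89.6 in the knockdown library, a read ratio of 1.02 (0.948 to 1.10). Psmb7 stood at 29.1 and 28.4 FPKM, with a read ratio of 0.943 (0.884 to 1.01). Nek6, on the opposite strand, shares 405 exon bases with Psmb7, 11.8% of its model, and had 1036 and 637 reads, so part of the Psmb7 reads could belong to it if strand was not used. The intervals of Psmb5 and Psmb7 both include equality, and the log2 ratio of Psmb5, 0.0757, became -0.0117 when the libraries were scaled by their upper quartile. Psmb6 was higher in the knockdown library, from 61.9 to 79.8 FPKM, a read ratio of 1.25 (1.18 to 1.32). No interval of a constitutive subunit overlapped that of the immunosubunit paired with it.

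**Figure D2:**
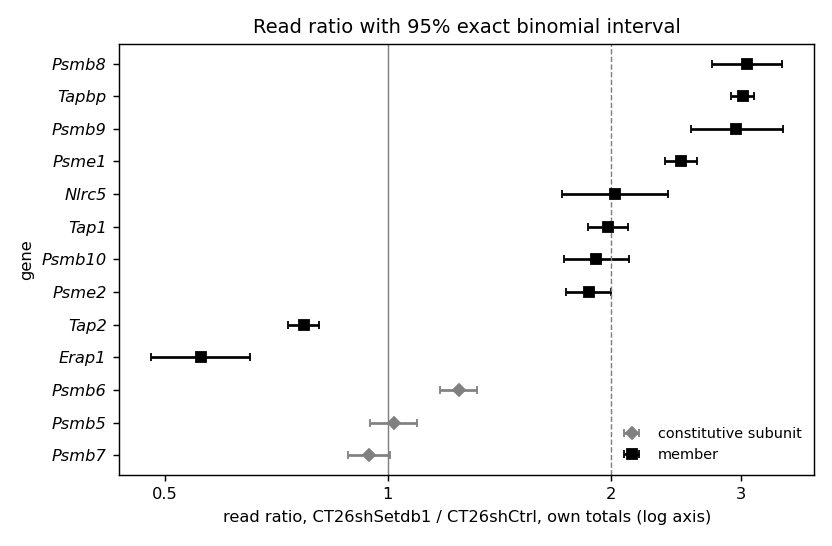
Read ratio of CT26shSetdb1 over CT26shCtrl, each relative to its library's total (log axis), with exact 95% binomial intervals for the members (squares) and the constitutive subunits (diamonds). Psmb8, Tapbp, Psmb9 and Psme1 lie wholly above the dashed line at 2, and Erap1 and Tap2 lie wholly below the line at 1.

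Set against their counterparts per length of the gene model, the immunosubunits took a larger share of each catalytic pair in the knockdown library. The share of Psmb8 in the summed FPKM of Psmb8 and Psmb5 was 9.20% (8.32 to 10.1) in control cells against 23.3% (22.0 to 24.6) in the knockdown library. For Psmb9 with Psmb6 the share was 5.71% (5.04 to 6.45) against 12.6% (11.7 to 13.5). For Psmb10 with Psmb7 it was 38.9% (36.7 to 41.2) against 56.4% (54.5 to 58.2), so that Psmb10 passed its counterpart in the knockdown library alone. Summed over the 3 pairs, immunosubunits made up 30.9 of the FPKM beside 176 of constitutive subunits in the control library, which is 14.9%. In the knockdown library they made up 75.4 beside 198 FPKM, or 27.6%.

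These shares describe mRNA and depend on gene model length and on copies of the genes. The deposited models of these genes, apart from that of Psmb5, were longer than their principal protein-coding transcripts (3659 against 1352 bases for Psmb9, and 3421 against 1160 for Psmb7). Per length of the principal transcript, the Psmb10 share was 21.9% in control cells against 36.3% in the knockdown library, and Psmb10 did not pass Psmb7. A processed pseudogene that matches the Psmb5 protein, Gm3375 on chromosome 7, carried 1718 and 1819 reads, more than Psmb5 itself at 1431 and 1509. With those reads added to Psmb5, the Psmb8 share was 4.40% and 12.1%. In all 3 pairs the share was higher in the knockdown library under each of these settings. A change of length acts alike on both libraries and cannot alter this direction, and adding reads of copies changed the Psmb8 pair alone.

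**Figure D3:**
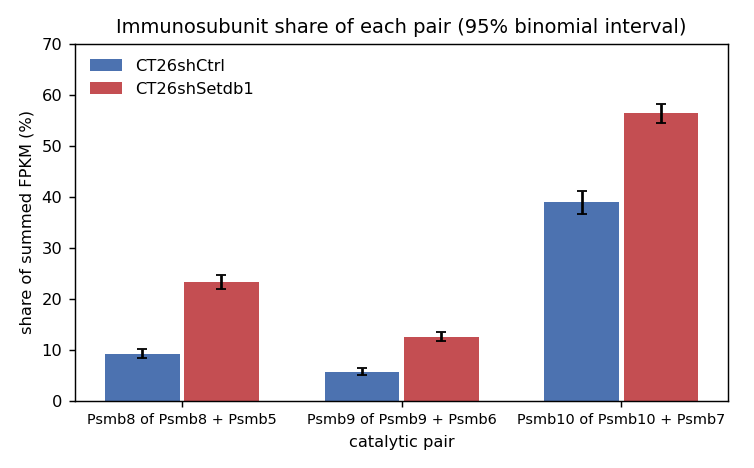
Share of the immunosubunit in the summed FPKM of each catalytic pair, by library, with exact 95% binomial intervals converted by gene model length. The share was higher in CT26shSetdb1 in all 3 pairs, and only for Psmb10 did it exceed 50%, at 56.4%.

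Both PA28 chains were higher in the knockdown library, the alpha chain by more than the beta chain. Psme1 (ENSMUSG00000022216; chromosome 14, 55578123 to 55581529) stood at 50.8 FPKM (2104 reads) in control cells against 131 FPKM (5409 reads) in the knockdown library, a read ratio of 2.49 (2.36 to 2.62). Psme2 (ENSMUSG00000079197; chromosome 14, 55587441 to 55591113), which lies 5911 bases away on the other strand, stood at 37.4 FPKM (1237 reads) and 72.3 FPKM (2388 reads), a read ratio of 1.87 (1.74 to 2.0015). The intervals of the chains do not overlap, and the FPKM ratio of Psme1 to Psme2 was 1.36 (1.27 to 1.46) in control cells against 1.81 (1.72 to 1.90) in the knockdown library. An intronless copy, Psme2b on chromosome 11, matches the same protein and held 473 and 866 reads, so reads of Psme2 and this copy may not be fully separable. With the reads of both added up, the log2 ratio of Psme2 stayed within its counting interval.

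Psme3, which encodes the nuclear PA28 gamma activator and is not an immunoproteasome gene, differed in the other direction. It stood at 77.2 FPKM (4262 reads) in control cells against 31.0 FPKM (1711 reads) in the knockdown library, a read ratio of 0.388 (0.367 to 0.411) and a log2 ratio of -1.29. The FPKM ratio of Psme1 to Psme3 was therefore 0.659 (0.625 to 0.695) in control cells against 4.22 (3.996 to 4.46) in the knockdown library. Of the 3 genes in the list of other activators and the inhibitor, Psme3 was at least 2-fold lower, against 4.85% of all genes tested. None was at least 2-fold higher, against 6.81%, and the list median was -0.67. With a pseudocount of 0.1, Psme4 was also at least 2-fold lower, against 8.15% of all genes. Psme4, which encodes the PA200 activator and was named after its values were seen, had 392 and 188 reads, a read ratio of 0.464 (0.388 to 0.553). Psmf1, the proteasome inhibitor PI31, stood at 11.7 and 11.8 FPKM, with a read ratio of 0.982 (0.911 to 1.06).

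The chains of the peptide transporter differed in opposite directions. Tap1 (ENSMUSG00000037321; chromosome 17, 34187553 to 34197225) stood at 14.6 FPKM (1499 reads) in control cells against 29.999 FPKM (3077 reads) in the knockdown library, a read ratio of 1.99 (1.87 to 2.11). Tap2 (ENSMUSG00000024339; chromosome 17, 34203527 to 34216321) stood at 53.5 FPKM (3791 reads) in control cells against 42.6 FPKM (3018 reads) in the knockdown library, a read ratio of 0.770 (0.734 to 0.808). The FPKM ratio of Tap1 to Tap2, whose products work as a heterodimer, was 0.273 (0.257 to 0.290) in control cells against 0.704 (0.669 to 0.740) in the knockdown library. Per length of the principal transcript the ratio was 0.461 (0.434 to 0.489) against 1.19 (1.13 to 1.25), so whether Tap1 or Tap2 was the more abundant mRNA in the knockdown library depends on the length used, while the higher ratio there does not. The log2 ratio of Tap2, -0.32, stayed negative under all 6 alternatives run, but none of them could have reversed it. A pseudocount cannot change a sign, the scaling factors ran only from 0.998 to 1.06, and summing copies added few reads. Gm15821, a locus on the opposite strand that shares 533 exon bases with Tap2, held 6 and 5 reads.

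Tapbp (ENSMUSG00000024308; chromosome 17, 33915899 to 33929288) had the most reads of the 10 genes in both libraries. It stood at 66.9 FPKM (4132 reads) in control cells against 209 FPKM (12873 reads) in the knockdown library, a read ratio of 3.01 (2.91 to 3.12). Its log2 ratio of (FPKM + 1) was the highest of the 10, but with a pseudocount of 0.1 that of Psmb8 was higher, 1.65 against 1.64, and their read ratio intervals overlap. Its model shares 149 exon bases with Zbtb22, a zinc finger gene on the same strand, which held 1539 and 1559 reads and a log2 ratio of 0.0180. Of the 5 other peptide loading factors, 2 were higher and 3 lower, none by 2-fold, with a median log2 ratio of -0.22. Calr, which encodes the lectin chaperone calreticulin, had the highest ratio, from 339 to 593 FPKM and a read ratio of 1.69 (1.66 to 1.72). Canx, which encodes calnexin, had the lowest, from 34.2 to 24.97 FPKM and a read ratio of 0.707 (0.668 to 0.747).

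Psmb9, Tap1, Psmb8 and Tap2 lie side by side in the class II region of the MHC, within 34.3 kb of chromosome 17. The deposited models of Psmb9 and Tap1, which run in opposite directions, overlap by 212 bases, and how reads of this overlap were assigned is not stated. Psmb8 begins 495 bases after the end of Tap1, and Tap2 begins 2072 bases after the end of Psmb8. The first 3 genes of this row were higher in the knockdown library and the last was lower. Within 100 kb on either side, 3 other loci reached 1 FPKM. Brd2, a chromatin reader gene, stood at 70.6 and 75.1 FPKM, a log2 ratio of 0.0881. H2-DMa, a chain of the class II peptide editor, had 52 and 132 reads (1.69 and 4.29 FPKM), and Gm20493, a processed pseudogene, had 5 and 9. The span holds 20 loci in all, and 8 of them had no read in either library.

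**Figure D4:**
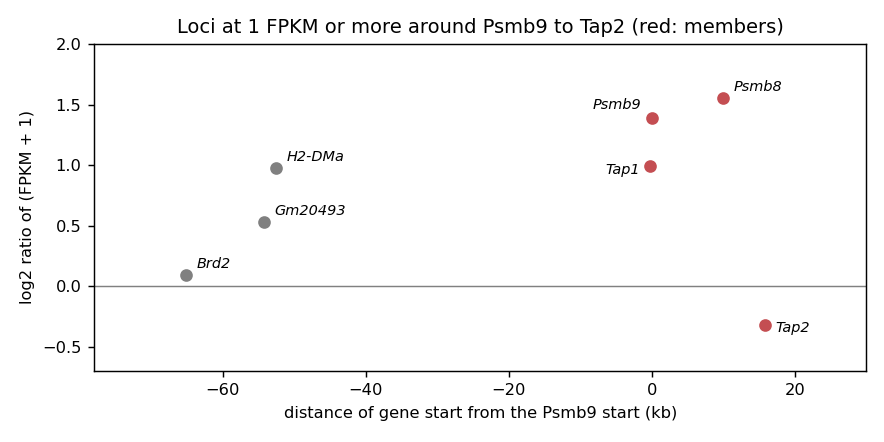
Log2 ratio of (FPKM + 1), CT26shSetdb1 over CT26shCtrl, of the 7 loci at 1 FPKM or more within 100 kb of the stretch from Psmb9 to Tap2, against the distance of the gene start from the Psmb9 start in kb. Psmb9 and Tap1 start at nearly the same place, at 1.39 and 0.99, and Tap2 lies at -0.32, 15.8 kb from the Psmb9 start.

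Psmb9 and Tap1 are transcribed away from each other, and their RefSeq start sites are separated by the 225 bases chr17:34187331-34187555 (GRCm38.p6, plus strand). This stretch is shown because both flanking genes were higher in the knockdown library. Its capitals mark the single match to GGGCGG, the core of a GC box, which reads on the minus strand.
Psmb9-Tap1: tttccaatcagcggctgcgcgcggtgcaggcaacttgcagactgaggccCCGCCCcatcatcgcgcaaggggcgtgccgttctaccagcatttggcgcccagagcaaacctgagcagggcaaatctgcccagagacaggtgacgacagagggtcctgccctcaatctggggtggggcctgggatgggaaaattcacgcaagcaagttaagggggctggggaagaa
RefSeq promoter windows, from 250 bases before to 50 after a start, were matched for 8 of the 10 genes. On either strand, GGGCGG occurred in 35.7% of all 32851 windows, and 6 of the 8 genes had a window that held it. The matches of Psmb9 and Tap1 are the same bases, those marked above. Psme2 had more than 1 window, so a count of genes is not directly comparable with a share of windows. The core of the interferon-stimulated response element, written as GAAA, any 2 bases and GAAA again, occurred in 3.44% of all windows and in those of Psme1 and Erap1. These windows are shown because they belong to a gene that was higher and a gene that was lower in the knockdown library. The capitals mark the match, which lies on the minus strand in both, in the stretches chr14:55578493-55578522 for Psme1 and chr13:74639839-74639868 for Erap1 (plus strand).
Psme1: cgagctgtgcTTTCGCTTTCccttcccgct
Erap1: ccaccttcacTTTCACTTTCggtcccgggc
TTCNNNGAA, the STAT binding core, occurred in 8.30% of all windows and, among these genes, in that of Psmb8. None of the 3 motifs overlapped another in the matches named here. A match describes letters only, and the absence of one says only that these letters are not in the window.

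Erap1 (ENSMUSG00000021583; chromosome 13, 74639568 to 74693201), the aminopeptidase that trims peptides in the endoplasmic reticulum, was lower in the knockdown library. It stood at 3.36 FPKM (458 reads) in control cells against 1.94 FPKM (265 reads) in the knockdown library, a read ratio of 0.560 (0.479 to 0.652). Cast, on the opposite strand, shares 834 exon bases with Erap1, 11.5% of its model, and stood at 7.59 and 8.59 FPKM, so part of the Erap1 reads could belong to it if strand was not used. Of the 6 other antigen-processing peptidases found of the 7 listed, 4 were higher and 2 lower, none by 2-fold, with a median log2 ratio of 0.18. Npepps, a cytosolic aminopeptidase, had the highest ratio, from 7.15 to 13.7 FPKM and a read ratio of 1.85 (1.71 to 2.0). Lnpep, an endosomal aminopeptidase related to Erap1, had the lowest, from 2.58 to 1.91 FPKM and a read ratio of 0.714 (0.635 to 0.802).

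Nlrc5 (ENSMUSG00000074151; chromosome 8, 94434356 to 94527272) was expressed at a low level and was higher in the knockdown library. It stood at 1.35 FPKM (215 reads) in control cells against 2.83 FPKM (450 reads) in the knockdown library, a read ratio of 2.02 (1.72 to 2.39). Its log2 ratio of (FPKM + 1), 0.70, understates this difference, because the pseudocount of 1 is of the same size as the level. With a pseudocount of 0.1 the log2 ratio was 1.01. Of the 8 genes encoding its partners at class I promoters, 5 were higher and 3 lower, none by 2-fold, and their median was 0.17. Rfxap, a subunit of the RFX complex, had the highest ratio, from 10.7 to 18.4 FPKM and a read ratio of 1.67 (1.48 to 1.88). Atf1, of the CREB/ATF family, had the lowest, from 14.6 to 8.08 FPKM and a read ratio of 0.535 (0.477 to 0.600).

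Of 8 transcription factor genes of the interferon and NF-kappaB pathways, which act on many of the promoters of this pathway, 7 were higher and 1 lower, with a median log2 ratio of 0.85. Stat2 had the highest ratio, from 5.21 to 27.5 FPKM and a read ratio of 5.11 (4.67 to 5.59). Irf9, its DNA-binding partner, was the other gene at least 2-fold higher, from 6.34 to 26.0 FPKM. This makes 2 of the 8 genes, against 6.81% of all genes tested. Irf1, which like Irf9 was named after its values were seen, stood at 9.84 and 19.3 FPKM, with a read ratio of 1.90 (1.73 to 2.08). Rela, an NF-kappaB subunit, was the gene that was lower, from 77.3 to 49.3 FPKM and a read ratio of 0.618 (0.587 to 0.650).

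The 3 class I chains listed, which receive the peptides, were all higher, with a median log2 ratio of 1.27. Of these, 2 were at least 2-fold higher, against 6.81% of all genes tested. H2-K1 had 1449 reads in control cells against 5729 in the knockdown library, a read ratio of 3.82 (3.61 to 4.05), and B2m, the light chain, had 18263 and 33491, a read ratio of 1.77 (1.74 to 1.81). H2 heavy chains are close paralogs, and no source used here says how reads that fit several of them were assigned. Of 9 class II pathway genes, H2-DMa and Cd74 reached 1 FPKM. Cd74, the invariant chain, stood at 11.2 and 18.9 FPKM, a read ratio of 1.63 (1.41 to 1.89). Ciita, the class II counterpart of Nlrc5, had 1 read in the control library against 0 in the other, and H2-Aa, H2-Ab1 and H2-DMb1 had none in either. A difference in these 4 genes was not detectable at this depth.

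The other subunits of the core and regulatory particles had medians near 0, and the assembly chaperones were mostly lower in the knockdown library. Of the 11 other subunits of the core particle, 6 were higher and 5 lower, none by 2-fold, with a median log2 ratio of 0.13. They ran from Psma4 (22.5 to 17.3 FPKM, log2 ratio -0.36) to Psma2 (20.2 to 36.2 FPKM, log2 ratio 0.81). Of the 18 genes of the regulatory particle, 8 were higher and 10 lower, none by 2-fold, with a median of -0.0140 and a range from -0.71 for Psmc2 to 0.83 for Psmd13. Other loci that match the Psmc2 protein held 3803 and 3035 reads, more than the 2877 and 1727 of Psmc2, so its value is uncertain. The core subunits restricted to thymus and testis, Psmb11 and Psma8, had no reads in either library. Of the 5 assembly chaperones, 4 were lower and 1 higher, none by 2-fold on this scale, with a median of -0.79. With a pseudocount of 0.1, 1 was at least 2-fold lower, against 8.15% of all genes. Pomp, which assists maturation of the core and is known to favour immunoproteasome assembly, was the one that was higher, from 18.96 to 24.99 FPKM and a read ratio of 1.28 (1.20 to 1.36). Psmg4 had the lowest ratio, from 51.1 to 26.3 FPKM, a read ratio of 0.497 (0.428 to 0.577). Psmg1, Psmg2 and Psmg3, named after their values were seen, had read ratios of 0.543 (0.479 to 0.615), 0.628 (0.558 to 0.706) and 0.464 (0.397 to 0.542).

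**Figure D5:**
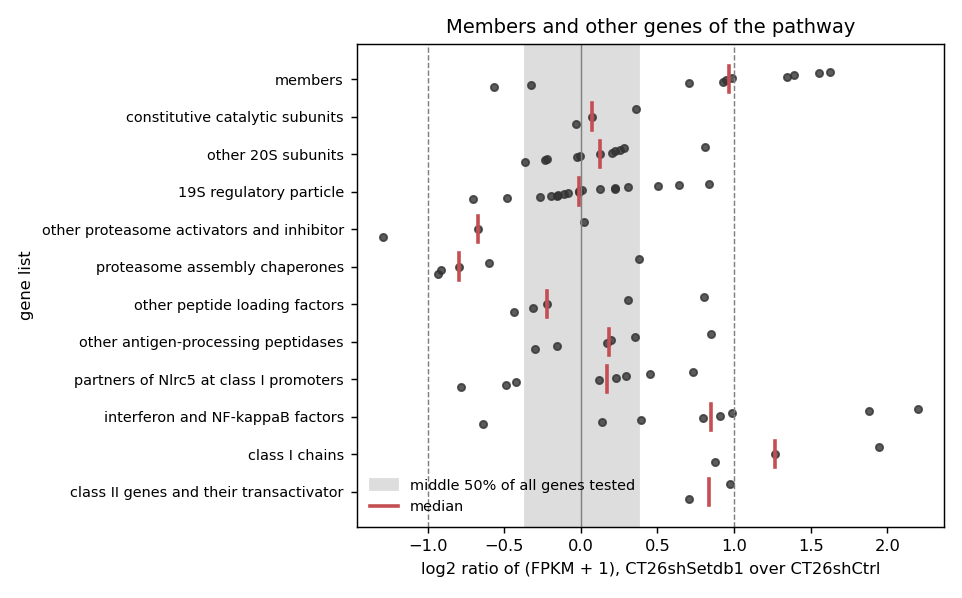
Log2 ratio of (FPKM + 1), CT26shSetdb1 over CT26shCtrl, of each gene at 1 FPKM or more (points) and the list median (red bar), with the range between the quartiles of all genes tested in grey and 2-fold as dashed lines. The 10 members have a median of 0.97, the regulatory particle -0.0140 and the assembly chaperones -0.79.

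Among themselves, the 10 genes ranged from 1.35 to 66.9 FPKM in control cells and from 1.94 to 209 FPKM in knockdown cells, and not in the same order. Per length of the gene model, the order in the control library was Tapbp, Tap2, Psme1, Psme2, Psmb10, Tap1, Psmb8, Psmb9, Erap1 and Nlrc5. The FPKM intervals of Tap2 (51.8 to 55.3) and Psme1 (48.7 to 53.1) overlapped, as did those of Psmb9 (3.31 to 4.24) and Erap1 (3.06 to 3.68), so these neighbours are not separated by counting. In the knockdown library the order was Tapbp, Psme1, Psme2, Tap2, Psmb10, Tap1, Psmb8, Psmb9, Nlrc5 and Erap1, and no neighbours overlapped. Tap2 went from the second to the fourth place, and Nlrc5 and Erap1 exchanged the last places. These places depend on the length used, because models exceed principal transcripts unequally (2209 against 1112 bases for Psme1, 3296 against 2898 for Tapbp). Per length of the principal transcript, Psme1 lies above Tapbp in both libraries, and Tap2 takes lower places.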

How the data were processed

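RNA sequencing of 2 libraries, 1 per group, was used, with groups taken from the genotype in the labels and columns matched by library name. HISAT2 and featureCounts 1.5.0-p3 on GRCm38 are named in the submitters' processing notes, and the strand setting, the annotation release and the treatment of multi-mapped reads are not given in the sources used here. The authors deposited FPKM values with gene model lengths and positions. Of 54495 gene IDs found in GENCODE M21, 98.3% had the same position. Values times length over a common step gave whole reads for 100% of the values above 0 in both libraries (tolerance 0.01 reads), and 1 depth, 18731117 reads, had been used to scale both libraries. Log2 ratios of (FPKM + 1) were computed, and genes that reached 1 FPKM in either library were counted at a 2-fold threshold. With 1 library per group no test was made. Read ratios have 95% Clopper-Pearson intervals relative to the libraries' totals, and levels have exact Poisson intervals. Calculations were tested on simulated data.

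The members and lists were chosen with earlier results of these data known. Named are Setdb1, the members, Psmb5, Psmb6 and Psmb7, the highest and lowest ratio of each other list, and loci at 1 FPKM or more near Psmb9 and Tap2. Other genes were named after their values were seen, and some listed genes are not reported here by name. Principal transcripts are the shortest APPRIS principal protein-coding ones. Promoter windows are from RefSeq (GRCm38.p6). Alternatives were a pseudocount of 0.1, 4 scalings, filters, thresholds, reads summed over loci with the same protein match, and other lengths. Software was scipy 1.17.1, pandas 2.3.3, numpy 2.4.6 and matplotlib 3.10.9 under Python 3.11.15.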

Additional observations from a re-analysis of the deposited data

How the results depend on the processing

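Of 60 alternative values of the 10 single log2 ratios, 56 stayed within counting error, 4 moved (3 under upper-quartile scaling, 1 with a pseudocount of 0.1) and 0 reversed. Some of these could not have moved, and the 0 reversals are no check of direction. The scaling factors ran only from 0.998 to 1.06, too near 1 to reverse any of the ratios. The ratio nearest 0 was -0.32, for Tap2. With reads summed by protein match only Psme2 and Tap2 could change, because no other member had a copy with reads. A changed pseudocount cannot reverse a sign. The median of the 10, 0.97, was 1.02 with a pseudocount of 0.1 and 0.86 as a mean. Scaled by the libraries' own read totals it was 0.92, and under upper-quartile scaling 0.88. The count at least 2-fold higher, 4, was 8 at 1.5-fold and 0 at 4-fold, as these thresholds make it, against 16.9% and 1.09% of all genes. It stayed at 4 under all 4 scalings, but factors this near 1 could not have changed it. The genes nearest the threshold were Psme1 at 1.35 and Tap1 at 0.99. The difference of the Psmb8 share, 14.1 percentage points, was 24.4 without length correction, 7.69 with reads summed by protein match, 19.2 per principal transcript and 11.6 with both changes. That of the Psmb9 share, 6.84, was 11.3 without length correction. The principal-transcript settings, and the count under the scalings and with summed reads, were chosen after seeing the data. The median of the 3 constitutive subunits, 0.0757, was -0.0117 under upper-quartile scaling. No paired analysis was possible because a group is a single library, and none could be left out. Depth limits Nlrc5 and Erap1 most, with 215 to 458 reads.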
